A study of Mus musculus with 14 samples.

Results

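The 10 genes described here encode the 6 mouse peroxiredoxins (Prdx1, Prdx2, Prdx3, Prdx4, Prdx5 and Prdx6) and 4 partners in the removal of superoxide and peroxides, namely Txn1, Sod1, Sod2 and Gpx4. They were chosen by name as a gene family and its partners, with earlier results of these data known but by no cutoff on measured values, and are 10 of 56923 genes in a table of RNA-seq counts. All 10 passed the filter on low counts in each comparison. The table holds 14 libraries of mouse 2-cell embryos, with 5 embryos in each library, in 7 conditions of 2 libraries.

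Early 2-cell embryos were collected at 30 h after hCG, the hormone that triggers ovulation, and late 2-cell embryos at 54 h. The G&N embryos of both stages were cultured with 5 µM Gne140, an inhibitor of lactate dehydrogenase, 50 µM NMN, a precursor of NAD, and 10 mM lactate. The G&N-L embryos received the same inhibitor and NMN with 0 mM lactate. Per the paper, lactate deprivation began at the late zygote stage for both collections. The late G&N-L embryos had therefore been without lactate for longer than the early ones. The late G&N-L + Lac-CoA embryos were lactate-free in the same way and had been injected with 1 mM lactyl-CoA, the donor for histone lactylation. The late H3K18R embryos had received mRNA of histone H3 in which lysine 18 was replaced, and the late WT embryos wild-type H3 mRNA, with neither inhibitor nor NMN given in their labels. Neither of these is a knockout, since the embryos keep their own histone H3 genes. Some labels disagree with each other. The treatment field names Gne140 alone for the early G&N libraries and Gne140 with NMN for the early G&N-L libraries, and the count columns of the mutant read K18A. Groups follow the sample titles.

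Peroxiredoxins reduce hydrogen peroxide and organic peroxides with a reactive cysteine, which most of them regenerate with electrons passed from NADPH through thioredoxin. Prdx1 and Prdx2 work mainly in the cytosol, Prdx3 in mitochondria, Prdx4 in the endoplasmic reticulum and Prdx5 in several compartments, while Prdx6 uses glutathione and also acts on phospholipids. At the 2-cell stage the mouse embryo degrades transcripts stored in the egg and starts transcription of its own genome, so that the RNA of any gene can be a maternal store, a new transcript or both. The count libraries do not separate these, and in pooled embryos fewer cells with a transcript and less RNA per cell cannot be told apart.

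Library totals ran from 20350427 to 61275465 counts, and a count of 0 allowed up to 3 counts, or 0.049 to 0.147 CPM (counts scaled to library size), for counting error only. The 9 egg-expressed marker genes (Zp3, Gdf9, Bmp15 and others) were all present and summed to 19434 to 23111 CPM in early libraries and 3675 to 20403 CPM in late ones. Of 7 listed genes of the embryonic genome (Zscan4c, Zfp352 and others), 6 had a row in the counts. Tdpoz4 among them had at most 3 counts in each early library. These embryonic markers summed to 353 to 534 CPM in early libraries and 848 to 3201 CPM in late ones. Their sum covers these genes only and does not measure transcription of the whole genome. It did not overlap between the labelled stages, while the highest late egg-marker sum, in a late G&N-L library, lay inside the early range. Cumulus cell markers (12 genes, of which Tnfaip6, Amh, Foxl2, Ptx3 and Inha had at most 3 counts in each early library and Amh in each late one) summed to 31 to 42.9 CPM early and 32.7 to 99.4 CPM late. Blood markers (Hbb-bs, Hba-a1, Hba-a2 and Ptprc) summed to 0 to 0.359 CPM early and 17.6 to 74.3 CPM late, with Hbb-bs at most 3 counts in each library, and fibroblast markers to at most 5.79 CPM. Whether these sums come from other cell types was not tested, nor was their part in the values below.

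The promoters of Prdx1, Sod1 and Prdx4 are printed first because these genes give the 2 falls past the threshold and the largest rise between the stages. Of each window only the part outside annotated exons is shown, and for Sod1 the match with its flanks. The core of the antioxidant response element, TGACNNNGC, to which Nrf2 binds, was searched on both strands in the RefSeq promoter windows (250 bases before to 50 after each start; the table's sequences were placed on GRCm39 by exact match). Of 32851 windows, 4071 (12.4%) held it. Windows were found for 9 of the 10 members, in 12 rows since Gpx4 has several starts, and 2 of these 12 rows held the core (Prdx6 was not matched). In the Prdx1 window the match lies 133 to 125 bases before the start, in capitals, is read on the opposite strand, and also holds the AP-1 core TGANTCA. In the Sod1 window the match lies 56 to 48 bases before the RefSeq start, on the opposite strand, inside an annotated exon of a longer transcript. The Prdx4 window has no match to these letters, so no base is in capitals. The sequences run 5′ to 3′ along the gene.
Prdx1, chr4:116542546-116542684, GRCm39, plus strand: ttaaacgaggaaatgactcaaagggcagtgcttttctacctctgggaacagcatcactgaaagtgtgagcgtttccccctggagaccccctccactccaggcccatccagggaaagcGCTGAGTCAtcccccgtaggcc
Sod1, chr16:90017584-90017612, GRCm39, plus strand: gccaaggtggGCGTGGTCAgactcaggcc
Prdx4, chrX:154121483-154121706, GRCm39, minus strand: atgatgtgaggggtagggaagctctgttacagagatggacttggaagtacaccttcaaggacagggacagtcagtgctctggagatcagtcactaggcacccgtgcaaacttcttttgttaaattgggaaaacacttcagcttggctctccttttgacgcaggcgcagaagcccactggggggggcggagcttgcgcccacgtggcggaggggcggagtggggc

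All members but Prdx2, Txn1 and Sod2 had their largest fitted change between the early and the late 2-cell stage. Prdx2 and Txn1 differed most between late WT and late G&N (log2 fold changes -1.01 and -1.24). Sod2 differed most between early G&N-L and early G&N (-0.67). Over all conditions, the 4 early and 10 late libraries did not overlap for 6 of the 10 genes. Prdx4, Prdx5, Prdx6 and Gpx4 were higher in each late library, where 11.8% of 25041 genes had late libraries all above the early ones. Prdx1 and Sod1 were lower in each late library, where 8.54% of genes had late libraries all below. Prdx2, Prdx3, Txn1 and Sod2 overlapped between the stages.

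**Figure D1:**
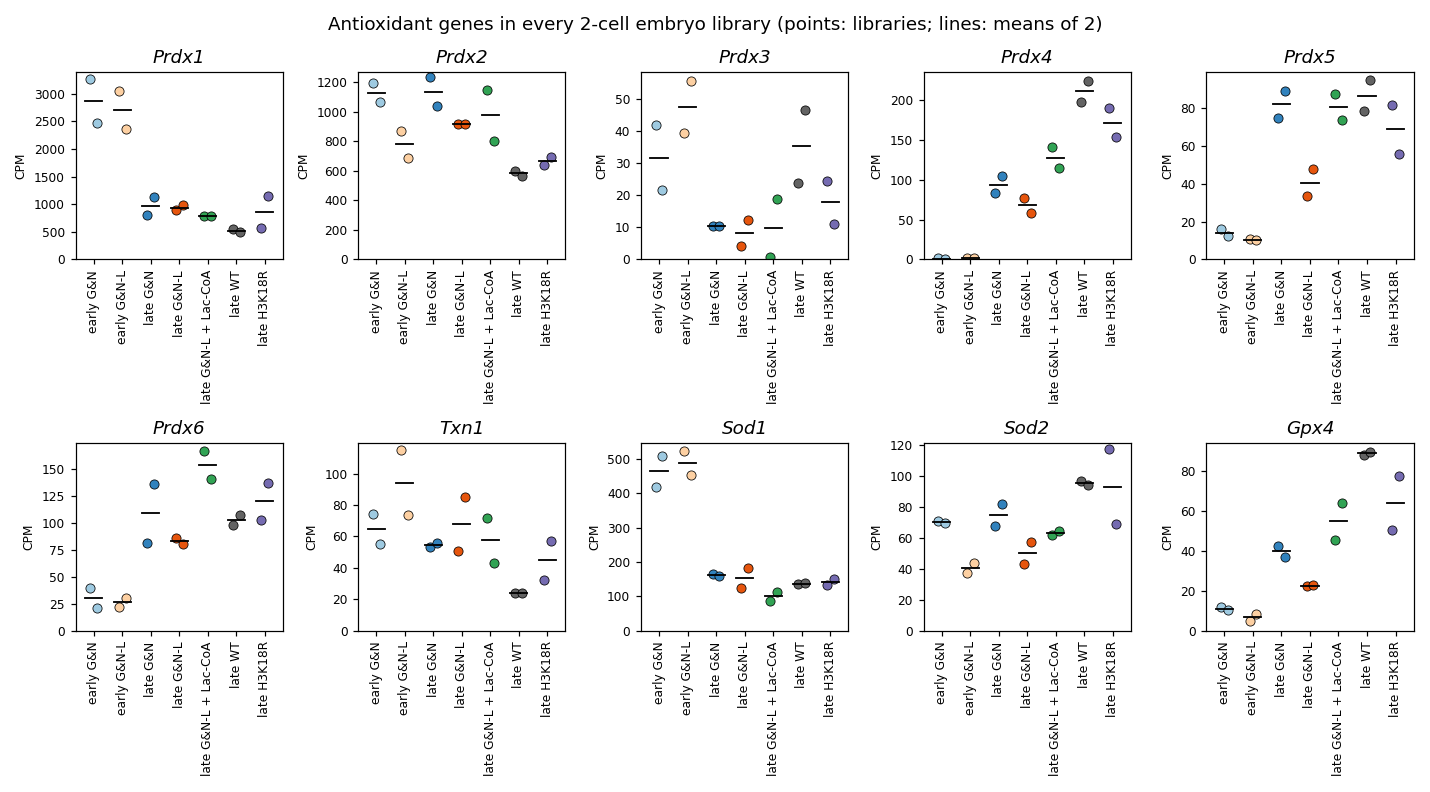
Level of each of the 10 genes in CPM on normalized library sizes (vertical axes, each from 0), in the 7 conditions (horizontal axes). Points are libraries and lines the means of n = 2; Prdx4 lies between 0.387 and 2.27 CPM in the early libraries and between 58.7 and 224 CPM in the late ones, while Prdx1 falls from 2367 CPM or more to 1145 CPM or less.

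Prdx4, the peroxiredoxin of the endoplasmic reticulum, was low early and rose in both media. In early G&N libraries it had 87 and 17 counts, or 1.71 and 0.387 CPM, and in early G&N-L libraries 80 and 50 counts, or 2.02 and 2.27 CPM. The late libraries held 82.9 and 105 CPM in G&N and 77.4 and 58.7 CPM in G&N-L. No early library approached a late one in either medium. The late G&N embryos had an 88.0-fold higher level than the early ones (log2 fold change 6.46, SE 0.757; edgeR quasi-likelihood test, adjusted p = 0.0109), and its log2 fold change was 7.85 without early G&N replicate 1 and 5.83 without early G&N replicate 2. The late G&N-L embryos had a 30.5-fold higher level than their early counterparts (4.93, SE 0.336; adjusted p = 0.00512). Acot9 overlaps Prdx4 on the opposite strand, and reads of both cannot be told apart if counting ignored strand, which is not stated. Acot9 itself moved the other way, from 109 to 141 CPM in early libraries to 6.48 to 43.0 CPM in late ones. Over all 7 conditions Prdx4 stood in the order late WT (mean 211 ± 18.5 CPM, SD, n = 2), late H3K18R (172 ± 25.7), late G&N-L + Lac-CoA (128 ± 18.8), late G&N (94.0 ± 15.6), late G&N-L (68.0 ± 13.2), early G&N-L (2.14 ± 0.177) and early G&N (1.05 ± 0.934), and the libraries of no neighbours in that order overlapped.

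Prdx5, the small peroxiredoxin of mitochondria, peroxisomes and cytosol, also rose in both media. It had 16.2 and 12.2 CPM in early G&N against 74.8 and 89.4 CPM in late G&N libraries, a log2 fold change of 2.47 (SE 0.317; edgeR adjusted p = 0.0129). Without lactate it had 10.9 and 10.1 CPM early and 33.3 and 47.9 CPM late, a log2 fold change of 1.89 (SE 0.324; edgeR adjusted p = 0.0278). All late libraries were above all early ones, and the late G&N-L libraries were the lowest of the late ones. Trmt112 overlaps Prdx5 on the opposite strand and was lower late (70.7 to 113 CPM) than early (205 to 254 CPM).

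Prdx6 and Gpx4, which both act on oxidized phospholipids with glutathione as donor, were higher late, Prdx6 past the threshold in both media and Gpx4 with lactate. Prdx6 had 39.8 and 21.4 CPM in early G&N and 81.1 and 136 CPM in late G&N libraries, a log2 fold change of 1.78 (SE 0.410; edgeR adjusted p = 0.0472). Without lactate Prdx6 had 21.8 and 30.6 CPM early and 85.8 and 80.7 CPM late (1.60, SE 0.278; edgeR adjusted p = 0.0287). The groups did not overlap in either medium. Gpx4 had 11.8 and 10.2 CPM in early G&N and 42.5 and 37.0 CPM in late G&N libraries, a log2 fold change of 1.79 (SE 0.362; edgeR adjusted p = 0.0355). Without lactate Gpx4 had 4.76 and 8.52 CPM early and 22.4 and 22.8 CPM late (1.69, SE 0.468), which missed the threshold (edgeR adjusted p = 0.0737). The Gpx4 groups did not overlap either. The pseudogene Gpx4-ps2 carried 20.6% to 25.5% as many counts as Gpx4 early and 8.83% to 22.5% late, and Prdx6-ps2 4.50% to 18.6% as many as Prdx6 early and at most 3.62% late, so the counts of these genes and their copies may be split between rows.

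Prdx1, the most abundant peroxiredoxin transcript of the early embryos, fell. It had 3257 and 2477 CPM in early G&N and 808 and 1130 CPM in late G&N libraries, a log2 fold change of -1.63 (SE 0.272; edgeR adjusted p = 0.0224). Without lactate it had 3050 and 2367 CPM early and 894 and 984 CPM late (-1.58, SE 0.151; edgeR adjusted p = 0.00796). The early libraries were all above the late ones. Sod1, the cytosolic superoxide dismutase, fell to a like extent, from 418 and 509 CPM to 165 and 160 CPM in G&N (log2 fold change -1.60, SE 0.278; edgeR adjusted p = 0.0247). Without lactate Sod1 had 524 and 454 CPM early and 125 and 183 CPM late (-1.73, SE 0.223; edgeR adjusted p = 0.0149). Its stages did not overlap in either medium, and Scaf4, which overlaps Sod1 on the opposite strand, was higher late (23.4 to 41.1 CPM) than early (9.85 to 17.5 CPM).

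Prdx3, the mitochondrial peroxiredoxin, had a lower late level in both media without passing the threshold. It had 41.8 and 21.5 CPM in early G&N and 10.5 and 10.3 CPM in late G&N libraries (log2 fold change -1.64, SE 0.443; edgeR adjusted p = 0.0633). Without lactate it had 39.3 and 55.7 CPM early and 4.11 and 12.4 CPM late (-2.60, SE 0.602; edgeR adjusted p = 0.0547). The stages did not overlap within a medium, but late WT libraries, at 23.9 and 46.6 CPM, lay within the early range. Prdx3 was the member on which libraries of one condition differed most: the late G&N-L + Lac-CoA libraries held 30 and 818 counts.

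Prdx2, Txn1 and Sod2 did not pass the test between stages. Prdx2, the second cytosolic peroxiredoxin, had log2 fold changes of -0.06 (SE 0.234) with lactate and 0.18 (SE 0.148) without, and the sign of the first depends on the scaling. Rnaseh2a, which overlaps Prdx2 on the opposite strand, had 0.544 to 2.03 CPM early and 2.86 to 23.4 CPM late. Txn1, the cytosolic thioredoxin, had -0.30 (SE 0.277) and -0.52 (SE 0.332), and the first was 0.07 when scaled to library totals. Sod2, the mitochondrial superoxide dismutase, had 0.01 (SE 0.278) and 0.25 (SE 0.268).

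**Figure D2:**
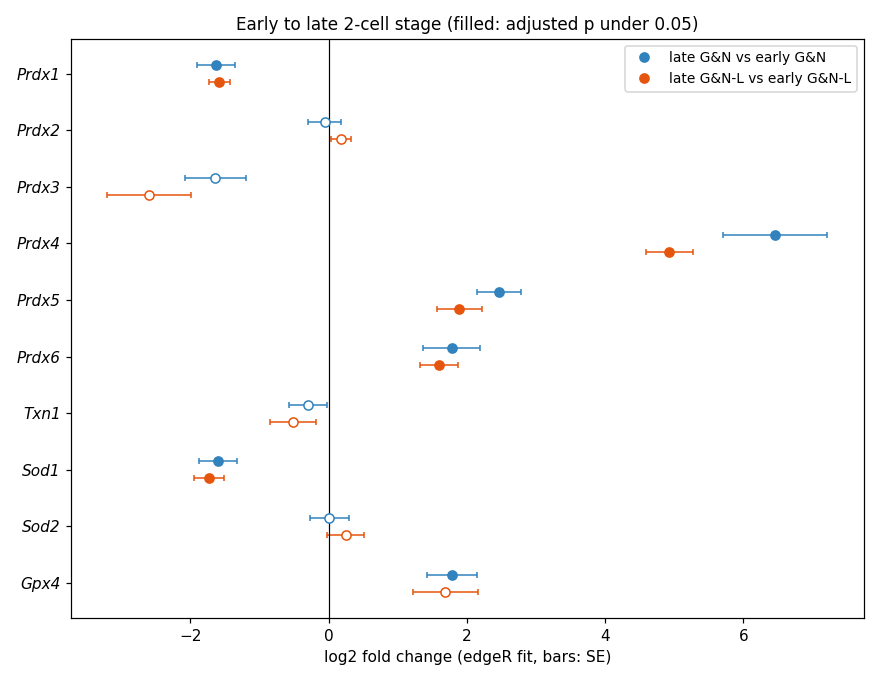
Log2 fold change from the early to the late 2-cell stage (horizontal axis) of the 10 genes (vertical axis), with lactate (blue) and without (orange); points are edgeR estimates, bars SE, filled points adjusted p under 0.05. Prdx4 lies farthest to the right at 6.46 and 4.93, Prdx1 and Sod1 lie between -1.73 and -1.58, and Prdx2 and Sod2 lie near 0.

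Counted over the 10 genes, 4 rose and 2 fell with lactate, where 8.18% of 19443 genes tested rose and 5.47% fell. Without lactate 3 rose and 2 fell, where 5.97% of 18604 genes rose and 5.87% fell. The median log2 fold change of the 10 genes was -0.03 with lactate and 0.21 without, against 0.08 and 0.15 over all genes tested. DESeq2 called 7 of the 10 in each medium, adding Prdx3 in both and Gpx4 without lactate, where it called 31.9% and 29.8% of the genes it gave an adjusted p. Leaving out late G&N replicate 1 left 0 calls with lactate (smallest adjusted p = 0.0527, edgeR), and so did leaving out late G&N replicate 2 (0.0548), in each case with an arm of 1 library assumed to vary like the other. Without lactate, 2 calls (Prdx1 and Prdx4) were left without late G&N-L replicate 1, and 3 (Prdx1, Sod1 and Prdx4) without late G&N-L replicate 2 or early G&N-L replicate 1. Scaling to library totals shifted all genes upward by 0.37 on the log2 scale with lactate and 0.36 without, and moved the share of calls that were higher from 59.9% to 76.4% and from 50.4% to 72.6%, while the called members kept their directions and their calls.

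Read per kilobase of the canonical transcript, the make-up of the 6 peroxiredoxins shifted with stage. Prdx1 led in each early library, with Prdx2 next. Prdx1 and Prdx2 were also the leading pair in each late library but 1, late WT replicate 2, where Prdx2 held 33.6%, Prdx4 25.9% and Prdx1 23.7%. Prdx1 made up 63.7% to 71.8% of the summed peroxiredoxin CPM per kb in early libraries and 23.7% to 43.5% in late ones. Prdx4 went from 0.0240% to 0.162% in early libraries to 5.77% to 25.9% in late ones, with the highest shares in late WT. Prdx2 held 25.3% to 34.2% early and 32.9% to 55.5% late. Prdx5 and Prdx6 stayed under 1% early, at 0.432% to 0.559% and 0.509% to 0.898%, and held 2.38% to 7.71% and 2.90% to 5.91% late. Over all annotated exons in place of the canonical transcript, Prdx1 held 70.0% to 76.7% early and 31.4% to 53.9% late and Prdx4 at most 0.0760% early and 3.07% to 15.2% late, so the shift did not depend on the length used. Which of Prdx1 and Prdx2 led in late libraries did depend on it, since Prdx2 then held 29.9% to 51.1%. So did the exception of late WT replicate 2, where over all exons Prdx2 held 32.8%, Prdx1 31.4% and Prdx4 15.2%.

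**Figure D3:**
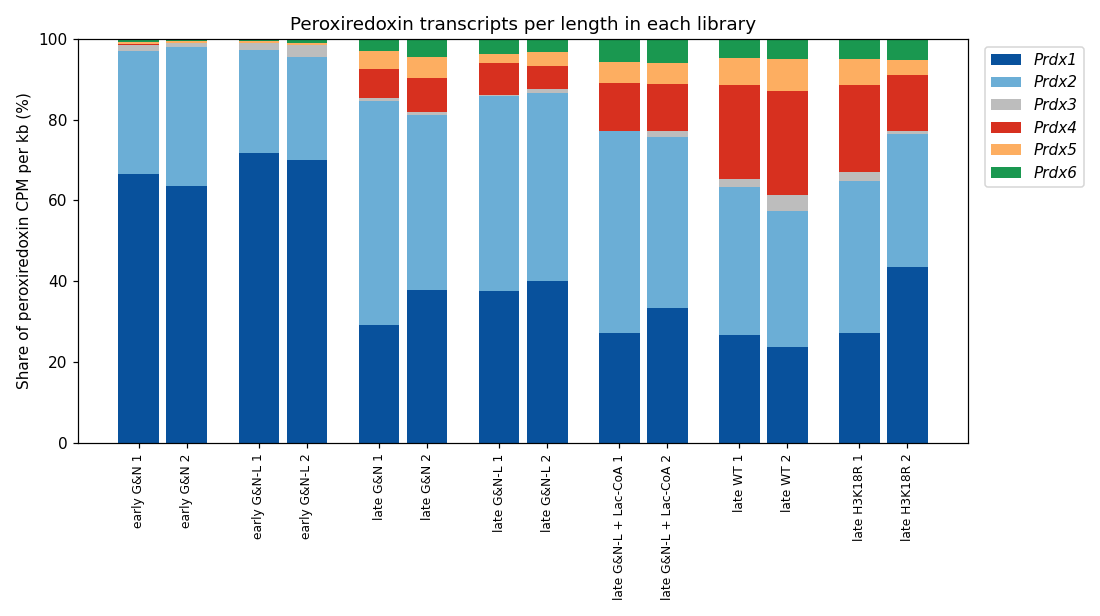
Share of each of the 6 peroxiredoxins in their summed CPM per kb of canonical transcript (vertical axis, percent), one bar for each library (horizontal axis, condition and replicate). The early bars are mostly Prdx1 (63.7% to 71.8%) and Prdx2, and Prdx4 (red) reaches 5.77% to 25.9% in the late bars.

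Lactate was removed to ask what the embryo's genes need from it at each stage. In late 2-cell embryos, 8 of the 10 genes had a negative log2 fold change without lactate, none with an adjusted p under 0.05. Prdx5 had 33.3 and 47.9 CPM in late G&N-L against 74.8 and 89.4 CPM in late G&N libraries, which did not overlap (log2 fold change -0.97, SE 0.281; edgeR unadjusted p = 0.0158, adjusted p = 0.332). Gpx4 had 22.4 and 22.8 CPM against 42.5 and 37.0 CPM, also without overlap (-0.77, SE 0.297; edgeR unadjusted p = 0.0439, adjusted p = 0.392). These were the only members with an unadjusted p under 0.05, and both were lower, where 7.65% of 19481 genes were lower and 4.32% higher by the same rule; 2 of 10 is near that background and is not a result about the members, and the count was 0 without late G&N-L replicate 1 or late G&N replicate 2. By adjusted p, edgeR called 0% of genes, and DESeq2 called 916 genes (4.99% of those with an adjusted p) but no member.

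The other members were closer together. Sod2 had 43.1 and 57.8 CPM without lactate against 67.6 and 82.3 CPM with it (log2 fold change -0.52, SE 0.264), and Prdx4 77.4 and 58.7 against 82.9 and 105 CPM (-0.41, SE 0.264); neither pair of groups overlapped. Prdx6 (-0.33, SE 0.292), Prdx3 (-0.30, SE 0.653), Prdx2 (-0.27, SE 0.184) and Sod1 (-0.03, SE 0.248) had smaller negative estimates, and Prdx1 (0.01, SE 0.199) and Txn1 (0.36, SE 0.313) positive ones. The median of the 10 was -0.31 against -0.02 over all genes tested. Of the marker sums, 3 moved with this comparison without overlap. The egg markers summed to 18354 and 20403 CPM without lactate and 14059 and 14570 CPM with it. The embryonic markers summed to 2244 and 2600 against 1848 and 1808 CPM, and the cumulus markers to 36.4 and 32.7 against 59.5 and 73.5 CPM. The paper reports less staining of newly made RNA in lactate-free late embryos, which these sums do not measure. From RNA-seq it also reports lower expression of genes of major genome activation in these embryos. The sum of the few embryonic markers listed here ran the other way. The part of the marker sums in the result was not tested.

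In early 2-cell embryos the estimates had no common direction, with 5 positive and 5 negative. Txn1 had 115 and 73.4 CPM without lactate against 74.1 and 55.2 CPM with it, groups that overlapped (log2 fold change 0.66, SE 0.258; edgeR unadjusted p = 0.0466). Sod2 had 37.1 and 44.1 CPM against 71.4 and 70.0 CPM, with no overlap (-0.67, SE 0.256; edgeR unadjusted p = 0.0414). Both had an adjusted p of 1. By the same unadjusted rule 1.82% of 17343 genes were higher and 2.70% lower, and 0% passed an adjusted p under 0.05. DESeq2 called 37 genes (0.247%), none of them a member. Prdx2 had 870 and 685 CPM against 1193 and 1066 CPM without overlap (-0.42, SE 0.173; edgeR unadjusted p = 0.0527). The remaining estimates were 1.22 (SE 1.13) for Prdx4, 0.75 (SE 0.382) for Prdx3, 0.18 (SE 0.226) for Sod1, 0.04 (SE 0.174) for Prdx1, -0.06 (SE 0.384) for Prdx6, -0.31 (SE 0.365) for Prdx5 and -0.58 (SE 0.507) for Gpx4. Without early G&N replicate 1 the count of members with an unadjusted p under 0.05 was 4, and it was 0 without either early G&N-L library. Sod2, Prdx2, Prdx5 and Gpx4 were lower without overlap in lactate-free embryos at both stages, as were 3.83% of 25041 genes. The egg-marker sum was 19993 and 19434 CPM in early G&N-L against 23111 and 21919 CPM in early G&N.

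Whether the change without lactate differed between the stages was tested as an interaction over 8 libraries. Late embryos had also been without lactate for longer, so stage and length of treatment cannot be told apart in it. No member had an unadjusted p under 0.05, where 7.55% of 22287 genes did, and 0% of genes passed the adjusted threshold (DESeq2 called 224 genes, or 1.25%, and no member). Prdx4 came closest, with a rise between stages that was smaller without lactate by 1.58 on the log2 scale (log2 difference -1.58, SE 0.741; edgeR unadjusted p = 0.0649, adjusted p = 0.656), and its early levels rest on 17 to 87 counts. The difference was -2.86 without early G&N replicate 1 and -0.85 without early G&N replicate 2. The other differences ran from -1.01 (SE 0.760) for Prdx3 and -0.62 (SE 0.423) for Prdx5 through -0.26 for Txn1, -0.24 for Prdx6, -0.17 for Sod1, -0.15 for Gpx4 and 0.00 for Prdx1 to 0.19 for Sod2 and 0.20 for Prdx2.

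Lactyl-CoA was injected into lactate-free embryos to ask what its return restores. The comparison shares its late G&N-L libraries with the lactate comparison, so that a low value there appears as a fall in one and as a rise in the other, and the values are given side by side without relating them. Gpx4, at 22.4 and 22.8 CPM in late G&N-L, had 45.7 and 64.0 CPM after injection (log2 fold change 1.23, SE 0.294; edgeR unadjusted p = 0.00783, adjusted p = 0.294). Prdx6 went from 85.8 and 80.7 CPM to 167 and 141 CPM (0.84, SE 0.206; edgeR unadjusted p = 0.00886, adjusted p = 0.294). Prdx4 went from 77.4 and 58.7 CPM to 141 and 115 CPM (0.86, SE 0.255; edgeR unadjusted p = 0.0184, adjusted p = 0.305). Prdx5 went from 33.3 and 47.9 CPM to 87.4 and 73.6 CPM (0.94, SE 0.281; edgeR unadjusted p = 0.0189, adjusted p = 0.305). None of these 4 genes overlapped between injected and uninjected libraries. The share of all genes without overlap is not given for this comparison, so the lack of overlap is a description only. No control injection is given for the late G&N-L or late G&N libraries. The injection itself and lactyl-CoA can therefore not be told apart against either group.

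They are the 4 members called by an unadjusted p under 0.05, all higher, where 6.92% of 19610 genes were higher and 6.38% lower, and 2 were called without late G&N-L + Lac-CoA replicate 1. By adjusted p edgeR called 0% of genes, while DESeq2 called 1183 genes (6.28%) and among the members Gpx4 (adjusted p = 0.0188) and Prdx6 (adjusted p = 0.0197). Sod1 was lower after injection, at 87.5 and 113 CPM against 125 and 183 CPM (-0.67, SE 0.264; edgeR unadjusted p = 0.0502), without overlap. Prdx1 had 781 and 789 CPM against 894 and 984 CPM, also without overlap (-0.31, SE 0.146). Prdx2 (0.05, SE 0.218), Txn1 (-0.29, SE 0.383), Sod2 (0.28, SE 0.252) and Prdx3 (0.19, SE 1.42) were within their errors or nearly so, and the Prdx3 estimate was -3.60 without late G&N-L + Lac-CoA replicate 2. The median of the 10 genes was 0.23 against -0.01 over all genes. The egg-marker sum was 15793 and 11144 CPM after injection, below the 18354 and 20403 CPM of late G&N-L. The embryonic-marker sum was 3201 and 3171 CPM against 2244 and 2600 CPM, and the cumulus sum 49.7 and 56.9 CPM against 36.4 and 32.7 CPM.

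Set against the lactate-fed late G&N embryos, the injected embryos differed less. Of the 10 genes 1 had an unadjusted p under 0.05, Sod1, at 87.5 and 113 CPM against 165 and 160 CPM (log2 fold change -0.61, SE 0.243; edgeR unadjusted p = 0.0481, adjusted p = 0.577), where 4.10% of 19613 genes were lower and 4.41% higher. It is near that background, and 0 members were called without late G&N replicate 1 or late G&N-L + Lac-CoA replicate 1. By adjusted p edgeR called 0% of genes, and DESeq2 471 genes (2.55%) but no member. Prdx5 returned an estimate of 0.07 (SE 0.251), with 87.4 and 73.6 CPM inside or close to the 74.8 and 89.4 CPM of late G&N. Prdx4 (0.54, SE 0.252), Prdx6 (0.60, SE 0.302) and Gpx4 (0.55, SE 0.314) had positive estimates, with each injected library of the 3 genes above both late G&N libraries. The other estimates were -0.21 (SE 0.217) for Prdx1, -0.13 (SE 0.256) for Prdx2, -0.01 (SE 1.29) for Prdx3, 0.16 (SE 0.332) for Txn1 and -0.15 (SE 0.247) for Sod2. The embryonic-marker sum was above that of late G&N (1848 and 1808 CPM) and the cumulus sum below it (59.5 and 73.5 CPM), both without overlap.

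**Figure D4:**
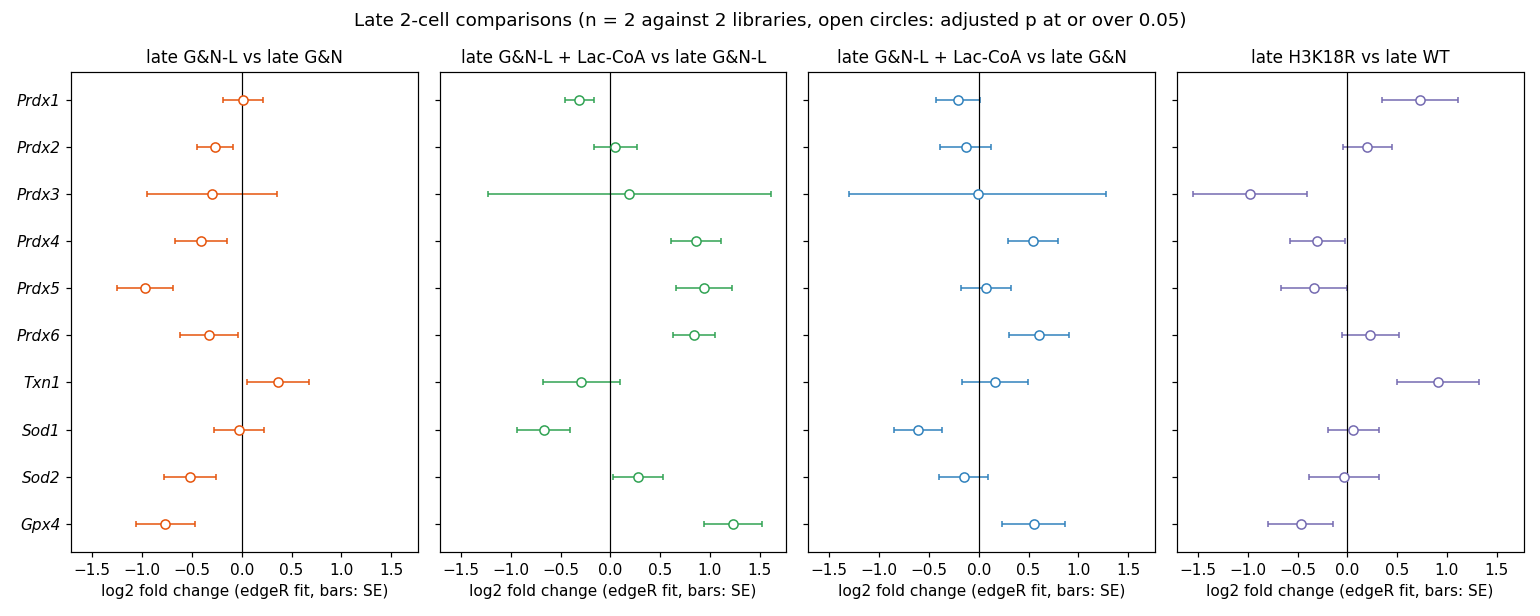
Log2 fold change (horizontal axes) of the 10 genes (vertical axis) in 4 comparisons of late 2-cell embryos, 1 panel each; points are edgeR estimates of 2 against 2 libraries and bars SE. All points are open, since none had an adjusted p under 0.05; Gpx4 and Prdx5 sit at -0.77 and -0.97 in the first panel and at 1.23 and 0.94 in the second, and these panels share the late G&N-L libraries.

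Embryos with the mutated histone were compared with embryos given the wild-type one, to ask what lysine 18 of H3 contributes. No member passed an unadjusted p under 0.05, where 3.77% of 17704 genes were higher and 2.67% lower. By adjusted p 0.00565% of genes (1 gene) were called by edgeR, and 118 genes (0.708%), none a member, by DESeq2. Prdx1 had 576 and 1145 CPM in late H3K18R against 546 and 494 CPM in late WT libraries (log2 fold change 0.73, SE 0.382; edgeR unadjusted p = 0.110), so that most of the difference came from 1 library. Txn1 had 32.5 and 56.9 CPM against 23.8 and 24.0 CPM (0.91, SE 0.408; edgeR unadjusted p = 0.0716). These groups did not overlap. Without late H3K18R replicate 1, 3 members had an unadjusted p under 0.05, and 1 without replicate 2. Prdx3 had 24.6 and 11.1 CPM against 23.9 and 46.6 CPM, with overlap (-0.98, SE 0.573). Gpx4 (-0.47, SE 0.328), Prdx5 (-0.33, SE 0.331) and Prdx4 (-0.30, SE 0.272) had negative estimates, and Prdx6 (0.23, SE 0.288), Prdx2 (0.20, SE 0.244), Sod1 (0.06, SE 0.257) and Sod2 (-0.03, SE 0.352) small ones. The egg-marker sum was 4071 CPM in late H3K18R replicate 1 and 8763 CPM in replicate 2, and Prdx1 and Txn1 were higher in replicate 2. The embryonic-marker sum was 1444 and 1547 CPM in late H3K18R against 1260 and 848 CPM in late WT. The part of these sums in the values was not tested.

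The late WT embryos were injected with mRNA and have no inhibitor, NMN or lactate level in their labels, while the late G&N embryos were cultured with all 3, so that injection and culture cannot be told apart between them. Between them 6 members had an unadjusted p under 0.05, 3 higher and 3 lower in WT, where 12.4% of 18986 genes were higher and 15.6% lower. The adjusted p of these 6 lay between 0.0550 and 0.0864 by edgeR, which called 4.62% of genes, and all 6 were called by DESeq2, which called 22.0% of genes. Prdx3 (log2 fold change 1.71, SE 0.448), Prdx4 (1.13, SE 0.219) and Gpx4 (1.11, SE 0.247) were the higher ones, with Gpx4 at 88.0 and 89.9 CPM in WT against 42.5 and 37.0 CPM. Txn1 (-1.24, SE 0.263), Prdx2 (-1.01, SE 0.201) and Prdx1 (-0.94, SE 0.215) were the lower ones, with Prdx2 at 600 and 563 CPM against 1236 and 1036 CPM. None of the 6 overlapped between the groups, which is a description only. They were picked by their p, and the share of all genes without overlap is not given here. Sod2 (0.31, SE 0.220), Sod1 (-0.29, SE 0.197), Prdx6 (-0.12, SE 0.291) and Prdx5 (0.04, SE 0.235) differed less. The egg-marker sum, 3675 and 3711 CPM in late WT against 14059 and 14570 CPM in late G&N, differed too. So did the embryonic-marker sum, 1260 and 848 against 1848 and 1808 CPM.

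The order of the conditions set the genes apart. For Gpx4 it ran from late WT (mean 89.0 ± 1.34 CPM, SD, n = 2) through late H3K18R (64.2 ± 19.0), Lac-CoA (54.8 ± 12.9), late G&N (39.8 ± 3.85), late G&N-L (22.6 ± 0.277) and early G&N (10.97 ± 1.13) to early G&N-L (6.64 ± 2.66), and only late H3K18R and Lac-CoA overlapped as neighbours. For Prdx6 the Lac-CoA libraries were highest (154 ± 18.2 CPM) and above late H3K18R (120 ± 24.0), while late H3K18R, late G&N (109 ± 39.0) and late WT (103 ± 6.17) overlapped in turn, and late G&N-L (83.3 ± 3.59) lay below late WT and above early G&N but overlapped late G&N. For Prdx5 late WT, late G&N, Lac-CoA and late H3K18R overlapped, with late G&N-L (40.6 ± 10.3 CPM) below them all. For Sod1 both early conditions overlapped at the top (489 ± 50.1 and 464 ± 64.2 CPM), the next 4 conditions overlapped in turn from 163 ± 3.10 to 137 ± 2.04 CPM, and Lac-CoA was lowest (100.1 ± 17.9). For Prdx1 both early conditions overlapped at the top (2867 ± 551 and 2708 ± 483 CPM), the next 4 overlapped in turn down to Lac-CoA (785 ± 5.79 CPM), and late WT was lowest (520 ± 36.7). For Prdx2 late G&N (1136 ± 142 CPM) and early G&N (1129 ± 89.8) led and late WT was lowest (582 ± 26.1), and for Sod2 late WT led (95.8 ± 1.64) and early G&N-L was lowest (40.6 ± 4.92). For Prdx3 early G&N-L (47.5 ± 11.6 CPM), late WT (35.3 ± 16.1), early G&N (31.6 ± 14.3) and late H3K18R (17.8 ± 9.57) overlapped in turn, and late G&N (10.4 ± 0.162), Lac-CoA (9.78 ± 12.8) and late G&N-L (8.24 ± 5.84) had the lowest means, though the higher Lac-CoA and late G&N-L libraries, at 18.9 and 12.4 CPM, lay within the late H3K18R range. For Txn1 late WT was lowest (23.9 ± 0.147 CPM), below late H3K18R, and all other neighbours overlapped.

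Over the 14 libraries, the 1 gene with the profile most like that of each member, by Pearson's r of log2(CPM + 1) among 7687 genes with a mean of at least 10 CPM, is given as a description. The libraries fall into 2 stages, which all such pairs share. The nearest gene was Mt1, which encodes metallothionein-1, a metal-binding protein, for Prdx4 (r = 0.998), Skp1, a subunit of ubiquitin ligases, for Prdx1 (r = 0.991), and Pttg1, which encodes securin, for Sod1 (r = 0.983). For Gpx4 it was Snrpb, a core spliceosome protein (r = 0.978). For the others it was Zfp954 for Prdx5 (r = 0.988), Nup62cl for Prdx6 (r = 0.967), Bbip1 for Txn1 (r = 0.941), Cwc15 for Prdx2 (r = 0.938), Mrpl45 for Sod2 (r = 0.937) and Brip1 for Prdx3 (r = 0.910). None of these is itself a member.

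The wider redox genes, a list of 66 symbols for the thioredoxin and glutathione systems, NADPH supply, the Nrf2 pathway and related enzymes, moved between the stages in both directions too. With lactate 3 rose and 9 fell of 61 tested, and without lactate 5 rose and 12 fell of 61, by an adjusted p under 0.05. Over all genes 8.18% rose and 5.47% fell with lactate and 5.97% and 5.87% without. The list's median log2 fold change was 0.08 with lactate and 0.02 without, against 0.08 and 0.15 over all genes. With lactate, the glutathione transferases Mgst3 (log2 fold change -2.61) and Gsta4 (-2.54), the glutaredoxin Glrx (-1.81) and Me1, a malic enzyme that makes NADPH (-1.66), fell, and the mitochondrial glutaredoxin Glrx2 (4.81) and P4hb, a protein disulfide isomerase of the endoplasmic reticulum (2.88), rose, with adjusted p of 0.00709 to 0.0164 (edgeR). Without lactate, Sepsecs, which makes selenocysteine for enzymes such as Gpx4 (-3.47), Idh1, another NADPH source (-2.62), Gsta4 (-2.55), Mgst3 (-2.24) and Me1 (-1.92) fell and the heme oxygenase Hmox2 (2.21) rose, with adjusted p of 0.00583 to 0.0104 (edgeR). P4hb, which shares its compartment with Prdx4, had 8.79 and 7.58 CPM in early G&N and 66.0 and 60.1 CPM in late G&N libraries.

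In the late lactate and Lac-CoA comparisons edgeR called 0 of the 61 or 62 listed genes tested after adjustment, and DESeq2 called 3, 7 and 4 in the lactate comparison and in Lac-CoA against G&N-L and against G&N, where 4.99%, 6.28% and 2.55% of all genes were called by DESeq2. By unadjusted p, 3 were higher and 5 lower in late embryos without lactate, 5 higher and 8 lower after Lac-CoA against G&N-L, and 5 higher and 8 lower against G&N. Over all genes the shares higher and lower were 4.32% and 7.65%, 6.92% and 6.38%, and 4.41% and 4.10%. The first pair of counts is near that background, as is the 5 higher against G&N-L. No count was tested against its background, and none is read as a result about the list. P4hb had 33.7 and 29.1 CPM in late G&N-L, 66.0 and 60.1 CPM in late G&N, and 73.5 and 91.4 CPM after Lac-CoA, for log2 fold changes of -0.96 (edgeR unadjusted p = 0.0140) without lactate and 1.34 (edgeR unadjusted p = 0.00274) after Lac-CoA, again with shared libraries. Glrx2 (-2.27), Me1 (-0.58) and Pstk, a kinase of selenocysteine synthesis (1.45), were the others with the smallest p without lactate. After Lac-CoA, Mgst3 (-1.49), Lancl1, a glutathione-binding protein (-1.29), and Me1 (-0.82) had the smallest p against G&N-L, and Me1 (-1.31), Mgst3 (-1.28), G6pdx, the first enzyme of the pentose phosphate pathway (-0.91), and Msra, a methionine sulfoxide reductase (-2.55), against G&N. Me1 was at 367 and 334 CPM in late G&N-L, at 530 and 555 CPM in late G&N, and lowest after Lac-CoA, at 198 and 213 CPM.

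Of the listed genes tested, 0 of 57 had an unadjusted p under 0.05 in early embryos without lactate (0 by DESeq2). In late H3K18R against late WT, 4 of 58 were higher and 0 lower by unadjusted p, none by adjusted p with edgeR and 1 with DESeq2, where 3.77% of all genes were higher and 2.67% lower by unadjusted p. Those 4 were Idh1 (log2 fold change 3.33), Lancl1 (1.32), Gpx3, the secreted glutathione peroxidase (1.12), and Gstm5 (0.74). Their count was not tested against the share over all genes and is not read as a result about the list. In late WT against late G&N, 2 rose and 5 fell of 59 by adjusted p, where 1.94% of all genes were higher and 2.68% lower. Glrx2 (2.19) and Acsl4, which loads phospholipids with polyunsaturated fatty acids (2.27), were the higher ones, and Glrx (-2.70), the mitochondrial thioredoxin Txn2 (-2.20), Idh1 (-4.05) and Lancl1 (-2.13) were lower, with edgeR adjusted p of 0.0413 to 0.0494. In the interaction 1 was higher and 2 lower of 62 by unadjusted p, namely Gpx3 (1.51), P4hb (-1.40) and Glrx2 (-2.65), and 0 by adjusted p with edgeR or DESeq2. That is no more than the 7.55% over all genes and is not a result about the list. Sod3, the extracellular superoxide dismutase, had 100 counts in late G&N-L replicate 2 and 0 in each of the other 13 libraries.

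Among copies of the members, Prdx2-ps1 carried 0.410% to 0.617% as many counts as Prdx2 in all libraries, and Prdx6b had at most 1 count. Prdx1-ps, Prdx2-ps2 and Gpx4-ps1 had 0 counts in each library.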

How the data were processed

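RNA was measured in 14 libraries of mouse 2-cell embryos. The deposited values are raw counts per gene without normalization: per the labels and methods of the authors, reads passed FastQC and Trim Galore, HISAT2 placed them on the mm39 genome, and featureCounts summed them per gene, with strand setting and versions not given in the sources used here. Replicates were 3 per group in the methods and 2 in the counts, and p-values measure only the spread between these libraries, since nothing states separate cultures. Replicate libraries differed by more than counting noise (chi-square per degree of freedom 47.8 to 195).

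edgeR 4.0.16 (R 4.3.3) was run after its default filter and TMM scaling, with two-sided quasi-likelihood tests with Benjamini-Hochberg adjustment over all genes tested, each comparison on its own 4 libraries (8 for the interaction). The threshold was an adjusted p under 0.05, with an unadjusted p under 0.05 counted beside it. With 2 libraries in each group, the smallest p of an exact permutation test is 0.333. Fitted fold changes used a prior count of 0.125, and an SE is the log2 fold change divided by the root of the F statistic. Levels are CPM on TMM-scaled library sizes over all 14 libraries; marker sums and count floors use library totals. Lengths, overlaps and promoter positions come from GENCODE on GRCm39 (mm39), promoter sequences from RefSeq's table on GRCm38.p6. The edgeR fit was tried on simulated counts for late G&N-L against late G&N and for late against early G&N. No result above rests on that trial. DESeq2 1.42.0, other scalings and filters, 1 fit of all libraries, a replicate block and each library left out were alternatives. Named beside the members are listed redox genes with an adjusted p under 0.05 (up to 6 by smallest p) or, failing that, an unadjusted p under 0.05 (up to 4), copies of the members, and the gene most like each. The length of all exons was added after seeing the data. The members and lists were chosen with earlier results of these data known.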

Additional observations from a re-analysis of the deposited data

How the results depend on the processing

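With 2 libraries per condition, precision is limited by the number of libraries rather than by depth. Of 1030 recomputed log2 fold changes of single members, 65 changed sign, none in a result with an adjusted p under 0.05 and none where the reported size was above 0.36; 26 lost and 32 gained a call. No cause of these changes was tested. The genes called over the whole table by adjusted p numbered 2654 with lactate, 2203 without and 877 for WT against G&N by edgeR, and 5959, 5218 and 4104 by DESeq2.

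For late G&N-L against G&N, members with an unadjusted p under 0.05 numbered 1 (from 2) under DESeq2, its size factors, library totals, no filter, at least 10 counts and the replicate block. By adjusted p, DESeq2 called 2 members for Lac-CoA against G&N-L and 6 for WT against G&N, where 6 were also called without a filter and with at least 10 counts, and 1 with library totals or all libraries in one fit. For H3K18R, unadjusted calls numbered 1 with DESeq2 and 2 without a filter or in one fit, and in the interaction 1 in DESeq2, no filter, at least 10 counts, one fit and the replicate block. Against G&N, Lac-CoA had 0 with library totals, no filter or the replicate block. Library totals gave medians of 0.36 for Lac-CoA against G&N-L, 0.36 for the stages with lactate and 0.58 without.

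Signs changed as follows. Sod1 in late G&N-L against G&N was 0.02 with DESeq2 or its size factors and 0.01 without a filter. Prdx2 between stages with lactate was 0.05 with DESeq2 or its size factors, 0.33 with library totals, 0.11 with at least 10 counts and 0.01 in one fit; Txn1 there was 0.07 with library totals and Sod2 -0.02 without a filter. With library totals Prdx1 in early G&N-L was 0.00, Prdx3 for Lac-CoA against G&N 0.05 and Prdx1 in the interaction 0.04 (also 0.04 in one fit, 0.01 without a filter). In one fit Prdx1 was -0.05 in late and -0.08 in early G&N-L, and Prdx5 for Lac-CoA against G&N -0.03.

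Replicate numbers did not pair the libraries (correlation of deviations from -0.0402 to 0.00709, and only 2 pairs). With the replicate block, 4 members were called between stages with lactate (from 6, losing Prdx6 and Gpx4) and 5 without, where Prdx5 was lost and Prdx3 gained, early G&N-L had 0 unadjusted calls (from 2), the Lac-CoA median against G&N-L was 0.16, Prdx3 there was -0.99, and Prdx1 in the interaction was 0.00.

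Leaving out each library in turn, stage calls ran from 0 to 5 with lactate and 2 to 4 without. Unadjusted calls ran from 0 to 1 for late G&N-L, 0 to 4 for early G&N-L, 2 to 6 for Lac-CoA against G&N-L, 0 to 1 against G&N, 0 to 3 for H3K18R and 0 to 1 for the interaction. Medians ran from 0.07 to 0.58 for Lac-CoA against G&N-L and -0.14 to 0.30 for WT against G&N. Single log2 fold changes that changed sign ran, in late G&N-L, from -1.28 to 0.27 (Prdx3), -0.32 to 0.20 (Sod1), -0.18 to 0.30 (Prdx1), -0.04 to 0.67 (Txn1) and -0.62 to 0.12 (Prdx6), and in early G&N-L from -0.07 to 0.14 (Prdx1), -0.42 to 0.33 (Prdx6) and -0.04 to 0.45 (Sod1). For Lac-CoA against G&N-L they ran from -0.25 to 0.29 (Prdx2), -3.60 to 1.18 (Prdx3) and -0.71 to 0.12 (Txn1), and against G&N from -3.83 to 0.94 (Prdx3), -0.07 to 0.17 (Prdx5), -0.25 to 0.47 (Txn1), -0.42 to 0.09 (Prdx2) and -0.44 to 0.01 (Prdx1). For H3K18R they ran from -0.03 to 0.13 (Sod1) and -0.47 to 0.30 (Sod2), between stages with lactate from -0.22 to 0.05 (Prdx2) and -0.15 to 0.12 (Sod2), and for WT against G&N from -0.11 to 0.24 (Prdx5) and -0.42 to 0.36 (Prdx6). In the interaction they ran from -0.22 to 0.25 (Prdx1), -0.02 to 0.41 (Sod2), -0.63 to 0.17 (Prdx6), -0.58 to 0.43 (Gpx4), -0.45 to 0.06 (Sod1) and -0.66 to 0.06 (Txn1).

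Of 70 condition means in CPM, 49 moved by less than 1 SD when scaled to library totals and 21 by more; of 42 peroxiredoxin shares, 32 moved by more than 1 SD with the length of all exons.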
